A study of Homo sapiens with 34 samples.

Results

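The lymphoma cell lines described here, 6 of the 34 in the series, carry the pathology label of activated B-cell diffuse large B-cell lymphoma (ABC DLBCL), an aggressive tumour of mature B cells. They fall into 3 lines with the L265P substitution in the adaptor protein MYD88 (HBL-1, OCI-Ly3 and OCI-Ly10) and 3 further ABC lines (MD903, NU-DUL-1 and SU-DHL-8). The labels give the line and its pathology, not the genotype. HBL-1, OCI-Ly3 and OCI-Ly10 are the classical lines known to carry the substitution, the genotype was not read from the present values, and that of the other 3 lines was not examined here. No treatment, time or donor detail separates the groups in the labels. Each line is a long-cultured descendant of 1 tumour and was measured as 1 RNA-seq library, so the groups are 3 tumours against 3 tumours that differ in many alleles, and every p-value measures the spread between lines. The remaining 28 lines are 14 germinal centre B-cell (GCB) DLBCL, 11 mantle cell lymphoma and 3 Burkitt lymphoma lines, and served to estimate the spread between lines.

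MYD88 couples Toll-like receptors and the interleukin-1 receptor to the kinases IRAK4 and IRAK1. The L265P substitution lies in its TIR domain and lets the adaptor assemble with the kinases without a ligand, which drives NF-kB and the release of interleukin-6 and interleukin-10. These cytokines act back on the cell through JAK kinases and the transcription factor STAT3. ABC lymphomas also often depend on chronic B-cell receptor signalling. HBL-1 and OCI-Ly10 are known for mutations in the receptor subunits CD79B and CD79A.

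The values are log2 levels after variance stabilisation, in which 0 reads is 4.55 and, for well-read genes, 1 unit is a doubling. Near 0 reads the scale is compressed, so a difference there understates the change in reads. The 3 L265P libraries held 85958026 to 164896293 counted reads and the other 3 held 22703365 to 91210077. The labels mark all 6 as re-analysed. In the L265P lines 7022 to 7220 of 31975 genes had 0 reads, against 9064 to 9233 in the other ABC lines, and these ranges did not overlap. NU-DUL-1 was the shallowest of the 6 and is of another library type. It had 0 reads of ZNF593 and EMC6, as did 8 GCB lines, and 16565 RPM (reads scaled to the library total) from the mitochondrial list against 83838 to 110226 in the other 5 lines. Called genes are therefore given with and without it. Values set against each other without names stand in the order HBL-1, OCI-Ly10 and OCI-Ly3, then MD903, NU-DUL-1 and SU-DHL-8.

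The labels were first compared with lineage genes. The mean over the B-cell markers was 12.46 to 14.03 in the L265P lines and 12.54 to 13.02 in the other 3. The mean over 20 genes that typify ABC lymphoma was 13.35 in HBL-1, 13.37 in OCI-Ly3 and 13.52 in OCI-Ly10, but 10.25 in MD903, 10.63 in NU-DUL-1 and 8.87 in SU-DHL-8. The latter 3 values lay within the range of the 14 GCB lines (7.01 to 10.85), and the L265P values lay above those of all 28 lines of other pathology, of which the mantle cell lines reached 12.16. The mean over 18 germinal centre genes was 8.73 in HBL-1, 8.69 in OCI-Ly10 and at its lowest of the 3 in OCI-Ly3, against 7.65 to 9.15 in the other ABC lines and 8.54 to 12.14 in the GCB lines. MD903, NU-DUL-1 and SU-DHL-8 thus had the ABC label with a low mean over these 20 ABC genes. In MD903 (8.17) and SU-DHL-8 (7.65) the germinal centre genes also lay below the GCB range. The lists were chosen with earlier results of these data known, and 7 of the 20 ABC genes were called in the comparison below. The mean is therefore no independent check of the labels. For IRF4, 1 of the 20, NU-DUL-1 lay among the L265P lines. Markers of other cells were mostly scarce. The summed myeloid level was 0.832 to 9.59 RPM in the L265P lines and 0.332 to 6.64 RPM in the others. S100A8 had 0 reads in all 6 lines and CD3D at most 3. Some markers stood out in single lines. COL3A1 had 3855 reads in OCI-Ly10 and at most 3 in each other ABC line. CD247 and PECAM1 in HBL-1, COL1A1 in OCI-Ly3 and CST3 in OCI-Ly10 lay over 3 log2 units above both other L265P lines. Summed T-cell markers, of which the lines had 2 to 5 of 12 at 0 reads, were 17.4 to 139 RPM and 21.8 to 78.4 RPM. Summed stromal and endothelial markers were 27.1 to 69.5 RPM in the L265P lines and 6.47 to 15.9 in the other 3, and their part in the results was not tested.

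**Figure D1:**
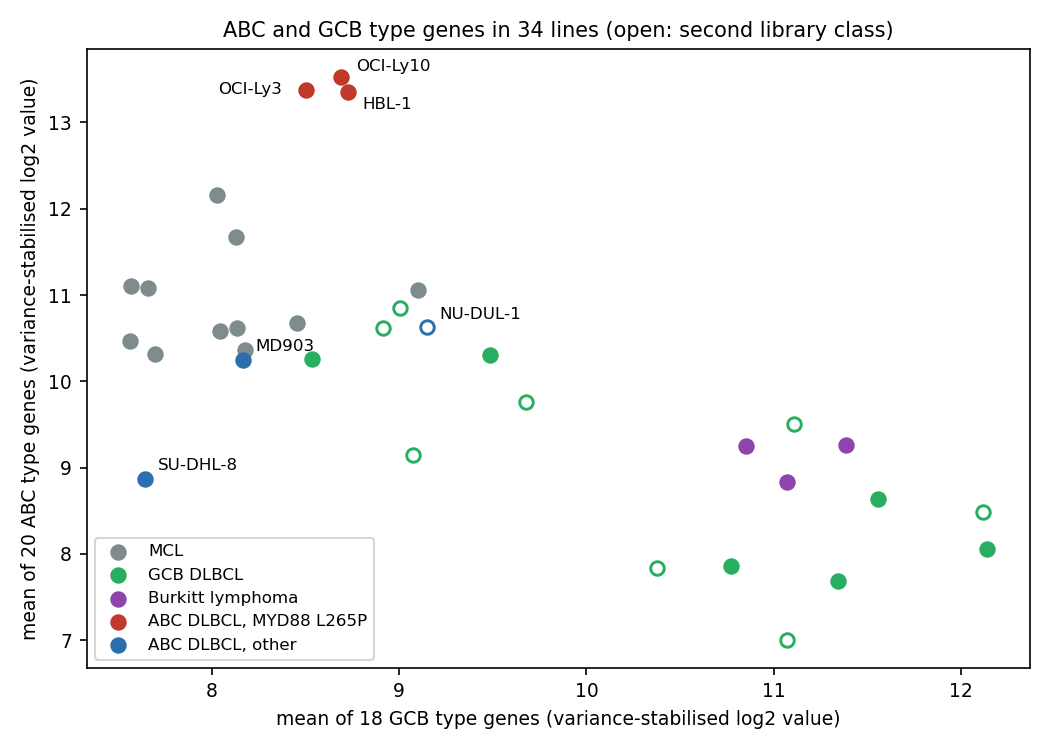
Mean log2 level of the 20 ABC-type genes (vertical axis) against that of the 18 germinal centre genes (horizontal axis), 1 point per line for all 34 lines, coloured by pathology and ABC group, with open points for the library type of NU-DUL-1. The 3 L265P lines lie together at 13.35 to 13.52 on the vertical axis, while MD903, NU-DUL-1 and SU-DHL-8 lie between 8.87 and 10.63.

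Across 22167 genes, 296 differed between the L265P lines and the other ABC lines (1.34%, limma, Benjamini-Hochberg adjusted p under 0.05). Of these, 252 were higher in the L265P lines (1.14%) and 44 were lower (0.198%). The higher calls included 153 genes with at most 10 reads in each of the other 3 lines, so many were genes on in the L265P lines and near silent in the rest. Complete separation was commoner than a call: 2148 genes had all 3 L265P lines above all 3 others (9.69%) and 1442 had them all below (6.51%). Of all genes tested, 2122 had an unadjusted p under 0.05, and voom on the recovered reads called 304. Counts in the gene lists below are to be read beside these shares, and 0 calls do not set a short list apart from all genes. All 296 called genes kept their direction without NU-DUL-1, and 165 of them still passed, 154 higher and 11 lower. The count rested on single lines, at 146 without OCI-Ly10 and 158 without SU-DHL-8, and 90 genes passed in every fit that left out 1 line. Scaling each library to the same median turned the 252 and 44 into 119 and 125, and moved the median difference of all genes from 0.01 to -0.48.

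**Figure D2:**
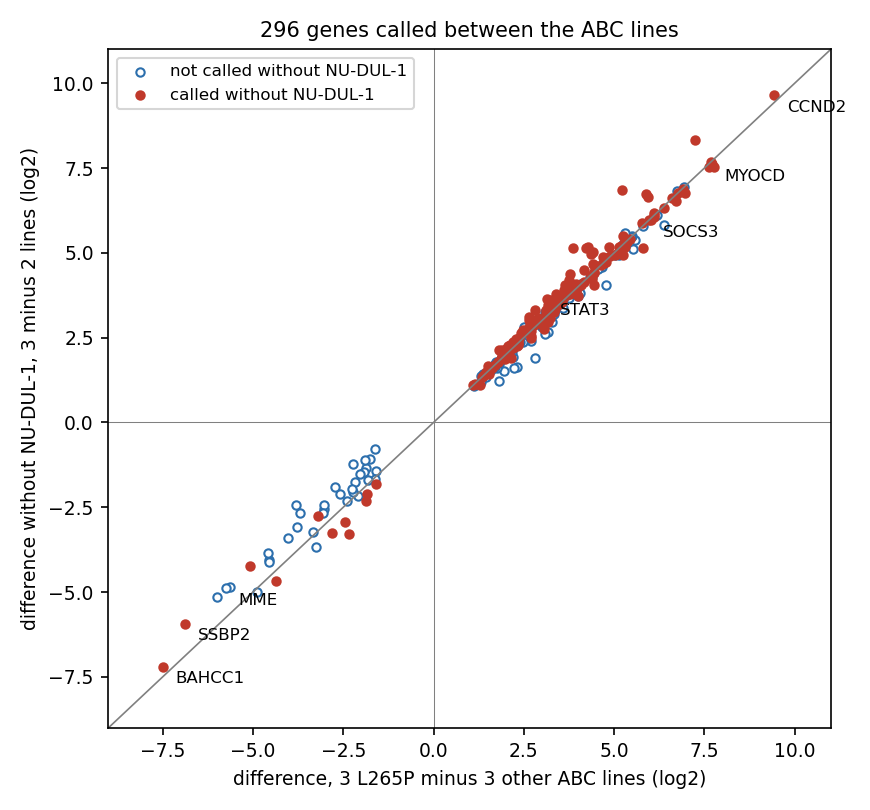
Difference in log2 level, L265P minus other ABC lines, without NU-DUL-1 (vertical axis) against the difference with all 6 lines (horizontal axis), 1 point per called gene, filled where it still passed and open where it did not, with the line of equal differences. All 296 points keep their sign, and 165 still pass the test without that line.

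The proximal MYD88 chain showed 0 called genes among 19 with limma or voom, where limma called 1.34% of all genes. It had 2 genes with an unadjusted p under 0.05, against 2122 of all 22167. MYD88 itself was at 12.44 in HBL-1, 13.20 in OCI-Ly10 and 13.16 in OCI-Ly3, and at 12.48 in MD903, 11.51 in NU-DUL-1 and 11.72 in SU-DHL-8. HBL-1 lay just below MD903, so the groups overlapped, and the difference of 1.03 ± 0.45 (SE) did not pass (adjusted p = 0.41). IRAK1, the kinase recruited through IRAK4, was at 12.37, 12.65 and 12.92 in HBL-1, OCI-Ly10 and OCI-Ly3 and at 13.04 to 13.59 in the others, a difference of -0.63 ± 0.70 (adjusted p = 0.93). IRAK4, the kinase nearest MYD88, had a difference of -0.48 ± 0.52 with overlapping values. The median difference of the 19 genes was -0.14, and -0.03 without NU-DUL-1.

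The Toll-like receptors and their cofactors likewise held 0 called genes among 14 tested with limma or voom, where limma called 1.34% of all genes. They had 1 gene with an unadjusted p under 0.05 and a median difference of 0.64. TLR7, which senses single-stranded RNA in endosomes, was at 7.18, 7.91 and 6.04 in HBL-1, OCI-Ly3 and OCI-Ly10, at 10.22 in MD903, at 12.98 in NU-DUL-1 and at 0 reads in SU-DHL-8. SU-DHL-8 lay below and the other 2 lines above all L265P lines. TLR9, the DNA sensor, was below the filter, with at most 5 reads in any ABC line. UNC93B1, which carries these receptors to endosomes, was at 12.14 to 12.72 in the L265P lines and 9.90 to 11.18 in the others, without overlap (2.01 ± 0.62, adjusted p = 0.12).

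B-cell receptor signalling also gave 0 calls among 21 genes with limma or voom, where limma called 1.34% of all genes. It had 4 genes with an unadjusted p under 0.05 and a median difference of 1.05. CD79A was at 15.85, 14.57 and 13.56 in HBL-1, OCI-Ly10 and OCI-Ly3 and at 12.59 to 13.80 in the other lines. CD79B reached 15.55 in HBL-1 but 13.07 in OCI-Ly3, below all 3 other ABC lines. These 2 subunits carry the receptor's signalling tails. BTK, the kinase downstream, was nearly level, at 12.70 to 12.86 in the L265P lines and 11.78 to 12.85 in the others (0.32 ± 0.43, adjusted p = 0.95). CD22, LYN, PLCG2 and VAV1, an inhibitory receptor, a kinase, a phospholipase and an exchange factor of the pathway, had all L265P lines above all others, with differences of 1.07 to 1.63 that did not pass.

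**Figure D3:**
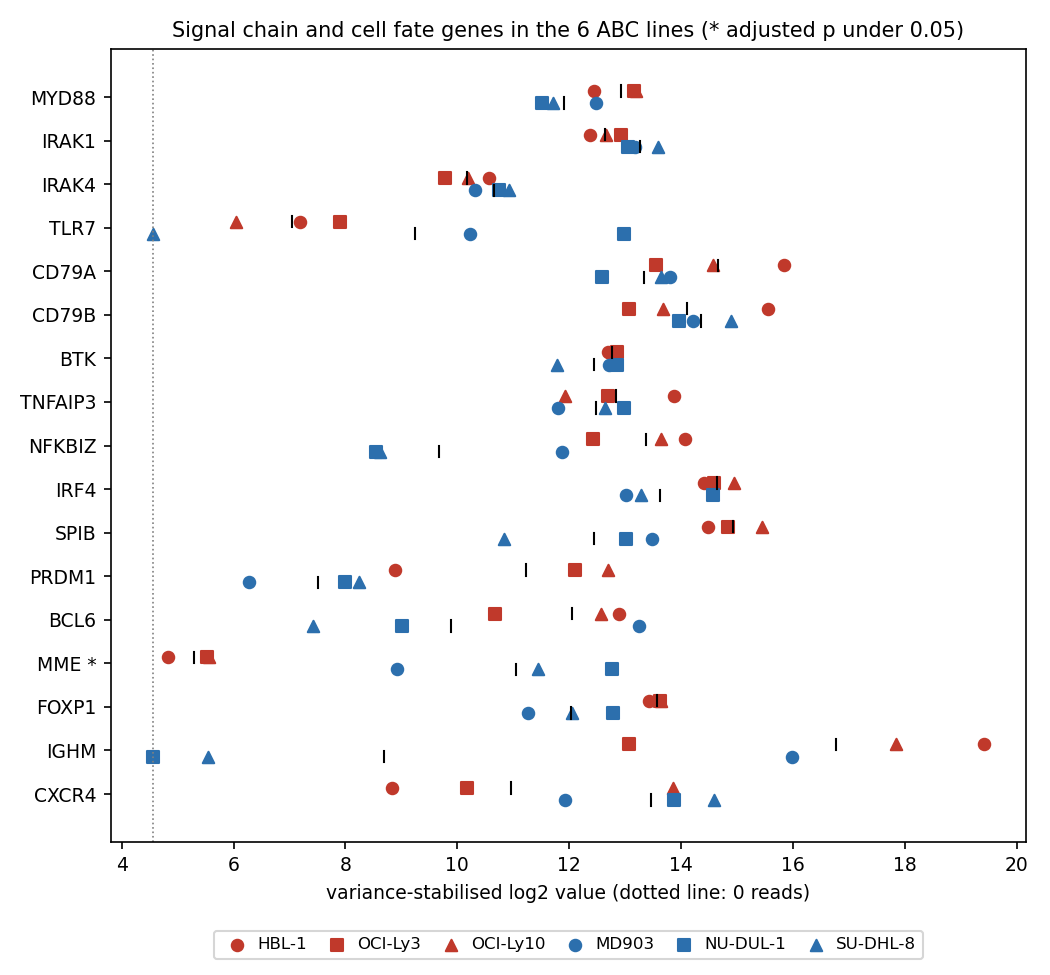
Log2 level (horizontal axis) of 17 signal chain and cell fate genes (rows) in each of the 6 ABC lines, with L265P lines in red, other ABC lines in blue, and vertical ticks at the group means. MYD88, IRAK4 and BTK overlap between the groups, NFKBIZ and PRDM1 are separated without passing the test, and MME alone of these passed.

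Genes of the JAK-STAT3 axis included 5 of 25 tested genes higher in the L265P lines, against 1.14% of all genes, and none lower. In 12 of the 25 all L265P lines lay above all others, against 9.69% of all genes. The median difference was 1.61, or 1.57 without NU-DUL-1, against 0.01 for all genes. IL10, the cytokine, had 618 reads in HBL-1, 398 in OCI-Ly3 and 1563 in OCI-Ly10 and 0 reads in each of the other 3 lines. Its difference was 3.84 ± 0.68 (adjusted p = 0.0011, and 0.0075 without NU-DUL-1), and it passed in each fit leaving out 1 line. SOCS3, a STAT3-induced brake on JAK signalling, had 2875, 6404 and 3683 reads in HBL-1, OCI-Ly3 and OCI-Ly10 and at most 2 in the others. The difference was 6.01 ± 1.32 (adjusted p = 0.011, and 0.046 without NU-DUL-1), and it narrowly missed the threshold without OCI-Ly10 (0.057).

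STAT3 itself was at 13.42 in HBL-1, 14.36 in OCI-Ly10 and 13.74 in OCI-Ly3, and at 10.30 in MD903, 11.73 in NU-DUL-1 and 10.08 in SU-DHL-8. The lowest L265P line lay well above NU-DUL-1, the highest of the others, and the difference was 3.14 ± 0.68 (adjusted p = 0.011, and 0.0096 without NU-DUL-1). It did not pass without OCI-Ly10 (0.079) or without SU-DHL-8 (0.081). PIM2, a survival kinase, was at 15.75, 15.22 and 15.08 in HBL-1, OCI-Ly10 and OCI-Ly3 against 12.12, 11.63 and 10.95 in MD903, NU-DUL-1 and SU-DHL-8 (3.78 ± 0.82, adjusted p = 0.010, and 0.039 without NU-DUL-1). BATF, an AP-1 family factor, was at 13.14, 14.01 and 14.38 against 9.17, 6.37 and 6.86 (6.38 ± 1.50, adjusted p = 0.021). BATF kept a difference of 5.83 without NU-DUL-1 but not its call (0.11), and missed the threshold also without OCI-Ly3, OCI-Ly10 or SU-DHL-8 (0.076 to 0.096). PIM2 missed it without SU-DHL-8 (0.069). PIM1, the sister kinase of PIM2, was 13.84 to 16.32 against 9.99 to 11.63 and missed the threshold (adjusted p = 0.16).

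Of the receptor chains for the cytokines, IL10RA and IL6R were separated without a call, while IL6ST and IL10RB overlapped between the groups. IL10RA was at 12.16 to 13.24 in the L265P lines and 5.74 to 8.26 in the others (5.58 ± 1.63, adjusted p = 0.090). IL6R had 1433 to 7507 reads against at most 4 (adjusted p = 0.065). IL6, its ligand, had 8 reads in HBL-1, 430 in OCI-Ly3 and 57 in OCI-Ly10 and at most 8 in the others, too few for the filter. JAK1, JAK2 and TYK2, the kinases of the axis, differed by 0.61 to 0.88 and did not pass.

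**Figure D4:**
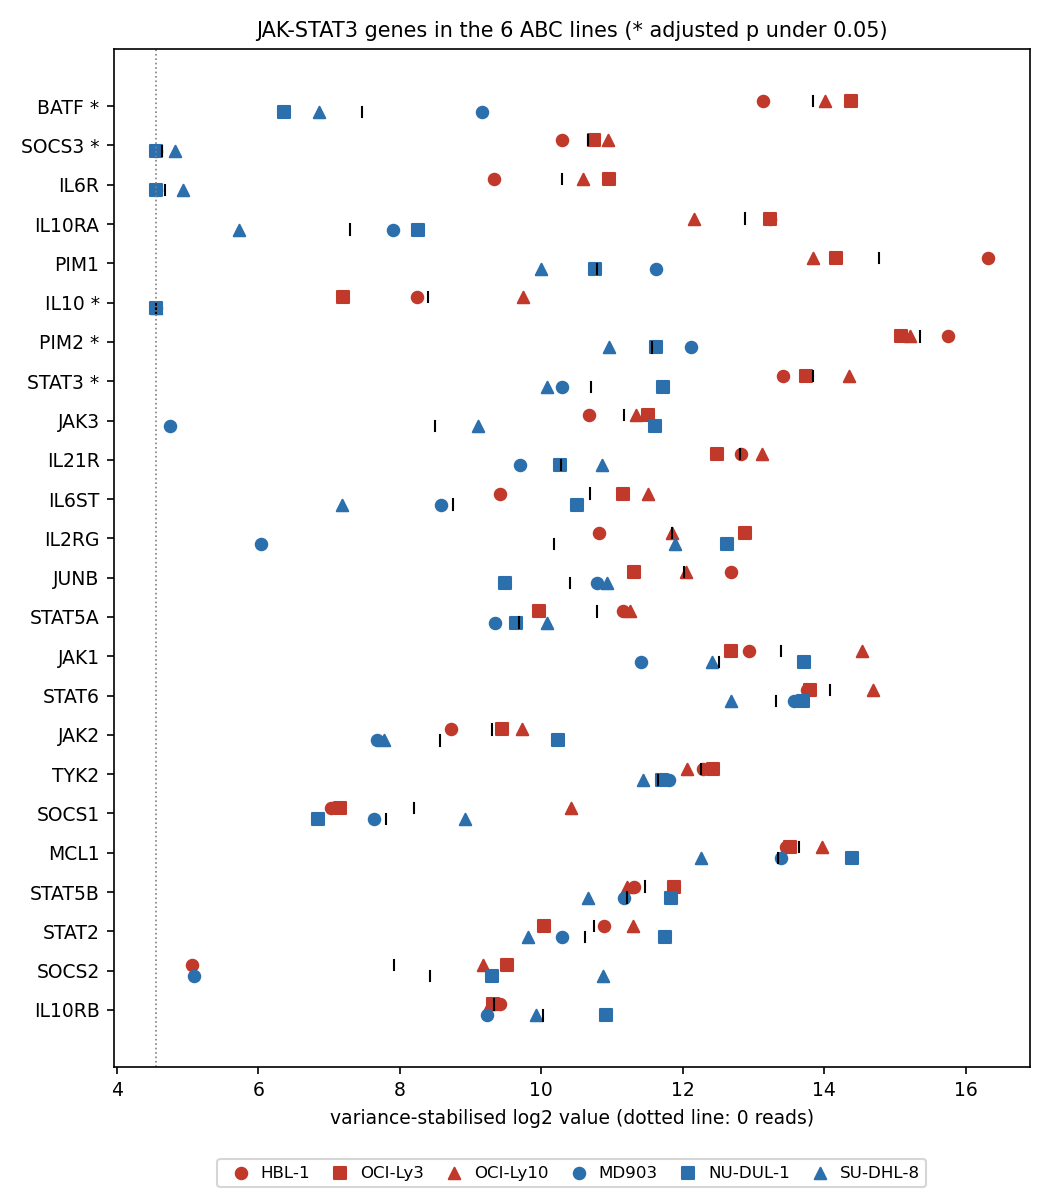
Log2 level (horizontal axis) of 24 of the 25 tested JAK-STAT3 genes (rows, in order of the difference) in the 6 ABC lines, with L265P lines in red, other lines in blue and ticks at the group means. IL10, SOCS3, STAT3, BATF and PIM2, marked with a star, passed the test, and for each all 3 L265P lines lie above MD903, NU-DUL-1 and SU-DHL-8.

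Promoters of 3 called genes and of MYD88 are shown as examples of windows that hold a motif match, and were chosen for that. Each is the 250 bases before the RefSeq start site (GRCh38.p14), read 5′ to 3′ on the gene's strand. Capitals mark matches on either strand to GGGNNTTNC, an NF-kB-type motif, or TTCNNNGAA, a STAT-type motif. The 4 windows are chr17:42388443-42388692 (minus strand) for STAT3, chr14:75522219-75522468 (plus) for BATF, chr2:201118466-201118715 (plus) for the first of 4 start sites of CFLAR, and chr3:38138411-38138660 (plus) for MYD88.
STAT3: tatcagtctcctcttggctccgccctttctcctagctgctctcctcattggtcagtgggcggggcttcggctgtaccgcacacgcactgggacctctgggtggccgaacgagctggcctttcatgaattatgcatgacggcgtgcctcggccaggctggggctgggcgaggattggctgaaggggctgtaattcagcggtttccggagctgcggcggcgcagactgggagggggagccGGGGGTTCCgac
BATF: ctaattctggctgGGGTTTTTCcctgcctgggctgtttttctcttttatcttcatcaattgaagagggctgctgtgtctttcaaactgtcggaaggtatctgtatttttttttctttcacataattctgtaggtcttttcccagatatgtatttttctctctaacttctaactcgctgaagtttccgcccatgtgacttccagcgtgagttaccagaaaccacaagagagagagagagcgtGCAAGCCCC
CFLAR: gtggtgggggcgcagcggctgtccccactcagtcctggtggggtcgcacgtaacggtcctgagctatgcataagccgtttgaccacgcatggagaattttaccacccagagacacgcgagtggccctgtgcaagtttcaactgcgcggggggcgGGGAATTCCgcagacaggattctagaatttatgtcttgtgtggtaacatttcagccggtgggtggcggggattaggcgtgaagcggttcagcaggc
MYD88: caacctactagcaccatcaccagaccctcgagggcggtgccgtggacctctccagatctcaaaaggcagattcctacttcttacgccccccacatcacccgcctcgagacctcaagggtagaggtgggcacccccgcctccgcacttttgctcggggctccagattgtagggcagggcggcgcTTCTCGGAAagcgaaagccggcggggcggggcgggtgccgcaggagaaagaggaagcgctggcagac
The NF-kB letters began at base -12 in STAT3, at -237 and -9 in BATF and at -96 in CFLAR, counted from the start site, and the STAT letters at -67 in MYD88. Of 35116 promoters of this length, 14.2% held the NF-kB letters and 6.57% the STAT letters. The called genes IL10, SOCS3, PIM2, BMF, CYB5R2, POU2F2 and RAB29 had no match in any window, and neither had the other 3 start sites of CFLAR. Counted per gene, 6 of 23 JAK-STAT3 genes (26.1%) held the NF-kB letters and 0 the STAT letters, against 19.6% and 7.72% of the tested genes with a promoter. Counted per promoter, 6 of 33 on that list (18.2%) held the NF-kB letters. Of 159 genes higher in the L265P lines, 24 (15.1%) held them, a smaller share than among all tested genes. On the NF-kB target list 10 of 19 genes (52.6%) held the NF-kB letters and 5 (26.3%) the STAT letters. For the genes that typify ABC lymphoma these were 4 of 15 (26.7%) and 1 (6.67%). The called genes SH3BP5 and MME also held the NF-kB letters, at -124 and, in 1 window of MME, at -233. These are matches of letters, not measured binding.

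NF-kB target genes were mostly separated between the groups but few passed the test. Of 23, 18 had all 3 L265P lines above the others and 1 (SLAMF1) below, against 9.69% and 6.51% of all genes. CFLAR was the 1 gene called. The median difference was 2.74, or 3.06 without NU-DUL-1. CFLAR, which encodes the caspase-8 inhibitor c-FLIP, was at 13.50 in HBL-1, 14.99 in OCI-Ly10 and 13.23 in OCI-Ly3, and at 10.17, 11.05 and 9.56 in MD903, NU-DUL-1 and SU-DHL-8. OCI-Ly10 was the highest and all 3 lay above NU-DUL-1 (3.65 ± 0.87, adjusted p = 0.024, and 0.037 without NU-DUL-1). It did not pass without MD903 (0.064), OCI-Ly10 (0.17) or SU-DHL-8 (0.13). BCL2A1, a survival protein of the BCL2 family, was at 12.01, 13.72 and 11.53 against 8.92, 6.54 and 6.16 (5.22 ± 2.07, adjusted p = 0.31). EBI3, a cytokine subunit, was at 12.48, 11.29 and 12.46 against 7.36, 5.25 and 4.93 (adjusted p = 0.11). Both were separated, with standard errors near 2 units over all 34 lines.

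Among 18 NF-kB subunits and inhibitors, 7 were separated upwards, against 9.69% of all genes. With limma 0 passed, against 1.34% of all genes, and voom called 1, MAP3K14. An unadjusted p under 0.05 was found for 6, against 2122 of all 22167. NFKBIZ, an atypical inhibitor of the family that can also activate targets, was at 14.06, 13.65 and 12.43 in HBL-1, OCI-Ly10 and OCI-Ly3 against 11.87 in MD903 and 8.54 and 8.62 in NU-DUL-1 and SU-DHL-8. MD903 came within a unit of OCI-Ly3 (3.70 ± 1.24, adjusted p = 0.17). NFKBIA, the classical inhibitor, was 12.77 to 13.88 against 10.76 to 12.18. TNFAIP3, which encodes the deubiquitinase A20, overlapped, at 11.93 to 13.86 against 11.80 to 12.98 (0.36 ± 1.37, adjusted p = 0.99). The subunits NFKB2 and RELB overlapped as well, with MD903 the highest ABC line for both.

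**Figure D5:**
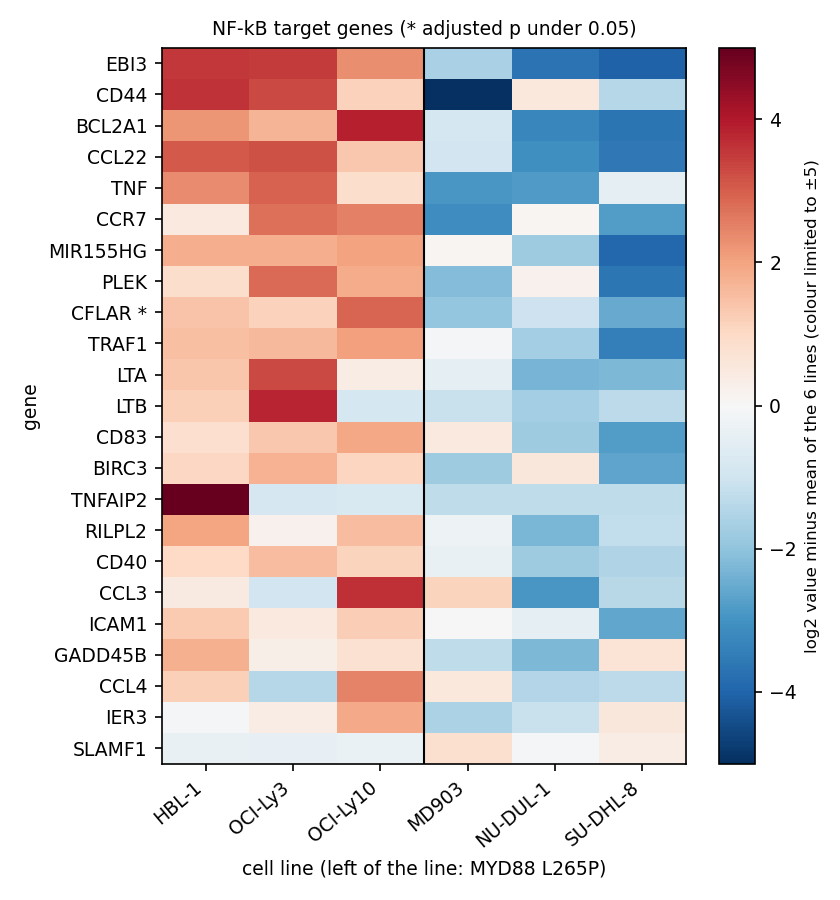
Log2 level of the 23 NF-kB target genes (rows) in the 6 ABC lines (columns), as the difference from the mean of the 6, red above and blue below it, with colours limited to 5 units. In 18 genes all 3 L265P lines, left of the black line, are above the other 3, and CFLAR alone passed the test.

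Interferon response genes gave 0 calls among 26 with limma or voom, where limma called 1.34% of all genes. They had 3 genes with an unadjusted p under 0.05, against 2122 of all 22167. In 6 the lines were separated upwards, against 9.69% of all genes, and the median difference was 0.98. IRF7, an activator of interferon genes, was highest in OCI-Ly10.

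The 20 genes that typify ABC lymphoma were the list with the largest median of those examined (3.32, and 3.79 without NU-DUL-1). They held 7 genes higher in the L265P lines, against 1.14% of all genes, and none lower. All 20 differences were positive and 16 genes were separated upwards, against 9.69% of all genes. PIM2 and BATF are counted here and again among the 5 JAK-STAT3 calls, and PIM1 is on both lists. CCND2 and CYB5R2 were near silent in most of the other ABC lines. CCND2, which encodes the cell-cycle regulator cyclin D2 (chr12:4273762-4305353, GRCh38.p14), had 131073 reads in HBL-1, 69715 in OCI-Ly3 and 24867 in OCI-Ly10, and 3, 8 and 2 reads in MD903, NU-DUL-1 and SU-DHL-8. This was the largest difference that met the rule for naming, 9.43 ± 1.69 (adjusted p = 0.0013, and 0.0071 without NU-DUL-1). CCND2-AS1, which overlaps it on the opposite strand, had 50 to 72 reads against 0, and since strand use in counting is not given the 2 cannot be fully told apart. CYB5R2, a cytochrome b5 reductase, was at 13.36, 13.29 and 12.99 against 4.76, 5.41 and 6.62 (7.62 ± 1.34, adjusted p = 0.0011, and 0.0084 without NU-DUL-1).

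RAB29, a small GTPase, was at 11.73 in HBL-1, 13.98 in OCI-Ly10 and 13.20 in OCI-Ly3 against 8.80 to 10.39 (3.38 ± 0.82, adjusted p = 0.026, and 0.037 without NU-DUL-1). SH3BP5, a BTK-binding adaptor, was at 12.98 to 14.60 against 11.94 in MD903, 7.27 in NU-DUL-1 and 5.09 in SU-DHL-8 (adjusted p = 0.041, and 0.16 without NU-DUL-1). BMF, a BH3-only death gene, was at 13.54, 12.80 and 13.22 against 9.09, 10.71 and 6.94 (4.27 ± 1.14, adjusted p = 0.049, and 0.035 without NU-DUL-1). RAB29 did not pass without MD903, OCI-Ly3, OCI-Ly10 or SU-DHL-8 (0.064 to 0.18). SH3BP5 passed only without MD903 and BMF only without NU-DUL-1 among the 6 fits that left out 1 line, with adjusted p of 0.073 to 0.33 and 0.091 to 0.32 in the others. BMF also missed the threshold with median-centred (0.089) or quantile-normalised libraries (0.083), with no filter (0.0503) or a stricter one (0.053), and in the 6 ABC lines alone (0.13). SH3BP5 missed it under both scalings (0.069 and 0.062), with the library type as a covariate (0.077) and in the 6 ABC lines alone (0.28), and RAB29 with median-centred libraries (0.056). IRF4, the factor most used to recognise ABC tumours, was at 14.41 to 14.95 in the L265P lines, while NU-DUL-1 at 14.57 lay among them (1.02 ± 2.26, adjusted p = 0.97). FOXP1 was 13.43 to 13.64 against 11.26 to 12.78 and also did not pass.

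On the germinal centre side 1 of 18 genes passed, lower in the L265P lines. The list as a whole was not lower: 10 of the 18 differences were above 0, and their median was 0.63, or 0.55 without NU-DUL-1. LMO2 and SERPINA9 were separated upwards, and GCSAM, MME and MYBL1 downwards. MME, which encodes the germinal centre antigen CD10, had 2, 23 and 42 reads in HBL-1, OCI-Ly10 and OCI-Ly3 and 910, 4922 and 6731 in MD903, NU-DUL-1 and SU-DHL-8 (-5.74 ± 1.47, adjusted p = 0.039). Its difference was -4.88 without NU-DUL-1, where the call was lost (0.20), and of the 6 such fits MME passed only without MD903. It also missed the threshold under voom (0.074). BCL6, a repressor needed for germinal centres, was at 12.88 in HBL-1, 12.57 in OCI-Ly10 and 10.68 in OCI-Ly3, against 13.25 in MD903 and 9.01 and 7.43 in NU-DUL-1 and SU-DHL-8. MD903 was thus the highest and SU-DHL-8 the lowest of the 6.

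Of 20 B-cell transcription factors 1 was higher in the L265P lines. POU2F2, which encodes the octamer-binding factor OCT2, was at 14.94, 15.57 and 14.33 against 12.75, 12.05 and 8.77 (3.76 ± 0.95, adjusted p = 0.036, and 0.049 without NU-DUL-1). It missed the threshold when HBL-1, OCI-Ly3, OCI-Ly10 or SU-DHL-8 was left out (0.056 to 0.34), and under both scalings of the libraries (0.078 and 0.080). SPIB, an ETS factor, was 14.48 to 15.45 against 10.83 to 13.48 (adjusted p = 0.17). PAX5, the B-lineage factor, overlapped. Of the 20, 5 were separated upwards and 3 (BACH2, FLI1 and TCF3) downwards, against 9.69% and 6.51% of all genes. The list's median of 0.40 became -0.10 after scaling libraries to the same median, and that of 15 plasma cell genes went from 0.28 to -0.22. PRDM1, which encodes the plasma cell regulator BLIMP1, was at 8.89 in HBL-1 and at 12.10 and 12.69 in OCI-Ly3 and OCI-Ly10, against 6.27 to 8.25 (adjusted p = 0.26). Of the plasma cell genes, CREB3L2, PRDM1 and SEC11C were separated upwards. CD38 was separated downwards, with the lowest difference of that list (-5.03), and did not pass.

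Immunoglobulin constant genes, with 15 tested, 0 called with limma or voom and 2 with an unadjusted p under 0.05, differed widely within both groups. IGHM, the heavy chain of IgM, was at 19.42 in HBL-1, 17.84 in OCI-Ly10 and 13.06 in OCI-Ly3, at 15.99 in MD903, and at 0 and 28 reads in NU-DUL-1 and SU-DHL-8. IGHG1 was at 11.19 in OCI-Ly10 and 7.17 in MD903 and at 14.78 to 15.87 in the other 4 lines. Reads of these near-identical segments can be shared between copies. IGLL1, a surrogate light chain, had at most 2 reads in the L265P lines against 1388, 3233 and 128185 in MD903, NU-DUL-1 and SU-DHL-8, without passing (adjusted p = 0.15).

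Beyond the lists, the 12 highest differences among called genes that passed with and without NU-DUL-1 and did not overlap included genes with roles outside B cells. After CCND2 came EPHB1, an ephrin receptor, with 12444 to 32712 reads in the L265P lines and 2, 0 and 29 in MD903, NU-DUL-1 and SU-DHL-8 (7.76 ± 1.61, adjusted p = 0.0065). MYOCD, a coactivator known from smooth muscle and heart, had 5953, 7383 and 70383 reads in HBL-1, OCI-Ly10 and OCI-Ly3 and 9, 0 and 0 in the others (7.71 ± 0.85, adjusted p = 6.02e-07). F5, which encodes coagulation factor V, had 1357, 2903 and 87433 against 0 in all 3 (6.90 ± 0.86, adjusted p = 4.75e-06). In MYOCD and F5, OCI-Ly3 was far the highest line. Without NU-DUL-1 these 3 kept adjusted p of 0.037, 1.6e-05 and 7.3e-05.

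MGST1, a microsomal glutathione transferase, had 9485 to 15926 reads and KIAA1217 2107 to 14024, each against 0 reads in the other 3 lines. GATM, the enzyme that starts creatine synthesis, was at 13.48 to 15.05 against 9.19 in NU-DUL-1 and 5.62 and 6.34 in MD903 and SU-DHL-8 (7.24 ± 1.60, adjusted p = 0.012). DHRS9, a retinol dehydrogenase, was uneven within the group, at 14.16 and 13.08 in HBL-1 and OCI-Ly10 but 8.29 in OCI-Ly3. RASGRF1, an activator of RAS, was even, at 11.62 to 12.01 against 4.98 to 5.89. MGST1, GATM and KIAA1217 missed the threshold without OCI-Ly10 (0.069 to 0.076), and the first 2 without SU-DHL-8 (0.054 and 0.069), GATM without MD903 (0.064) and KIAA1217 without HBL-1 (0.064). BTBD16 had the smallest standard error of these genes, at 9.94, 11.63 and 10.72 against 4.55 to 4.84 (6.11 ± 0.33, adjusted p = 6.69e-15). That error pools the spread of all lines in the fit, and no line of other pathology reached the lowest L265P line. It was therefore set mostly by lines with less BTBD16, and says little about the spread among L265P lines. In the 6 ABC lines alone the standard error was 0.59 (limma adjusted p = 0.024). Of the genes named here, DHRS9 had 1 and KIAA1217 had 2 of the 28 lines of other pathology at or above the lowest L265P line, and the others had 0.

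In the other direction 10 genes met the same rule. SSBP2, a single-stranded DNA-binding cofactor, had 163, 123 and 49 reads in HBL-1, OCI-Ly10 and OCI-Ly3 against 7175, 25576 and 17761 in MD903, NU-DUL-1 and SU-DHL-8 (-6.88 ± 0.80, adjusted p = 1.64e-06, and 6.3e-05 without NU-DUL-1). All 28 lines of other pathology were above the highest L265P line for SSBP2 and for TMX4. BAHCC1, a chromatin protein, had at most 13 reads against 5708 to 17908 (-7.50 ± 1.61, adjusted p = 0.0099, and 0.049 without NU-DUL-1). GLCCI1, a glucocorticoid-induced transcript, had 505, 104 and 243 reads against 3287, 10734 and 9916 (-5.09 ± 0.85, adjusted p = 0.00053). TMX4, a membrane thioredoxin-like protein, was at 8.58 to 9.27 against 10.54 in MD903 and higher values in the other 2 (-3.19 ± 0.64, adjusted p = 0.0047).

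The long non-coding RNA LINC00163 had 0 reads in every L265P line against 652, 191 and 2297, and the pseudogenes AOX2P and AOX3P were likewise at 0 against 12 to 498. GAL3ST4, a sulfotransferase, and AMBP, a plasma protein gene, completed the named genes at -2.81 ± 0.73 and -2.33 ± 0.61, with CCZ1B at -1.84 ± 0.47. AMBP had only 2 reads in NU-DUL-1, and its difference was -1.37 without SU-DHL-8 (adjusted p = 0.45). CCZ1B may share reads with its near-identical copy. SSBP2, BAHCC1, GLCCI1, LINC00163, TMX4 and AOX2P passed in every fit leaving out 1 line, and the other 4 in at most 2 of 6. GAL3ST4 and AMBP passed only without NU-DUL-1, CCZ1B without HBL-1 or NU-DUL-1 and AOX3P without NU-DUL-1 or SU-DHL-8.

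Of 24 chemokine and cytokine genes tested, IL10 and CXCL13 were higher, against 1.14% of all genes, and none was lower. IL10 is also counted on the JAK-STAT3 list. CXCL13, the ligand that draws B cells to follicles, had 7111 reads in OCI-Ly10 and 21980 in OCI-Ly3 but 2 in HBL-1, against 0 to 2 in the other lines. By log2 value HBL-1 still lay above the other ABC lines, but so near 0 reads that the separation means little. The call (5.02 ± 0.91, adjusted p = 0.0014, and 0.011 without NU-DUL-1) therefore rested on 2 of the 3 L265P lines. CXCL13 did not pass in the 6 ABC lines alone (adjusted p = 0.45), without the lines of NU-DUL-1's library type (0.053) or under voom (0.16). CCL22 was at 11.16, 9.44 and 11.30 against 7.16, 5.05 and 4.55 without passing (adjusted p = 0.34).

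Of 17 chemokine and positioning receptors 0 passed with limma, 4 had an unadjusted p under 0.05, and voom called 1, S1PR4. CXCR4, the CXCL12 receptor that the series is about, was at 8.84 in HBL-1, 13.86 in OCI-Ly10 and 10.18 in OCI-Ly3, against 11.93, 13.87 and 14.59 in MD903, NU-DUL-1 and SU-DHL-8. OCI-Ly10 lay above MD903, and HBL-1 was the lowest of the 6. The difference of -2.51 ± 1.74 did not pass in limma (adjusted p = 0.79) or in a two-sided exact permutation test (p = 0.2, where 3 against 3 lines can give no less than 0.1). CXCR5, the CXCL13 receptor, was at 14.67, 12.95 and 14.61 against 11.23 in MD903, 0 reads in NU-DUL-1 and 34 reads in SU-DHL-8 (6.94 ± 2.10, adjusted p = 0.11). CCR7, the lymph node homing receptor, was 12.32 to 14.60 against 8.73 to 11.95. S1PR4, a sphingosine phosphate receptor, had 3 to 32 reads against 931 to 9503 (adjusted p = 0.056).

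Among 18 costimulation and checkpoint genes LAG3 was higher. LAG3, an inhibitory receptor that binds MHC class II, had 5143 reads in HBL-1, 12598 in OCI-Ly10 and 179 in OCI-Ly3 against 0, 0 and 14 (5.29 ± 0.96, adjusted p = 0.0014, and 0.012 without NU-DUL-1). CD274, which encodes PD-L1, was at 9.08, 9.83 and 7.66 against 4.91 to 6.77 and did not pass (adjusted p = 0.44). Of 13 MHC class I genes 1 passed, lower in the L265P lines. TAP2, a subunit of the peptide transporter, was at 8.94 and 9.66 in HBL-1 and OCI-Ly3 and at 6.29 in OCI-Ly10 against 10.53 to 10.90 (-2.41 ± 0.63, adjusted p = 0.047, and 0.15 without NU-DUL-1). OCI-Ly10 was far the lowest, and TAP2 did not pass without it (0.47), MD903 (0.081) or SU-DHL-8 (0.14), nor under voom (0.063). B2M, the class I light chain, overlapped. MHC class II gave 0 calls with limma or voom and 0 at an unadjusted p under 0.05, and HLA-DRA was at 11.40 in OCI-Ly10 and at 15.04 to 15.62 in the other 5 lines.

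In the BCL2 family BMF was the only called gene of 16. BCL2 itself was at 13.16, 13.01 and 13.11 in HBL-1, OCI-Ly10 and OCI-Ly3 against 10.35 in MD903, 11.65 in NU-DUL-1 and 1148 reads in SU-DHL-8, separated but not called (2.76 ± 1.99, adjusted p = 0.81). HRK, another BH3-only gene, had 1 to 31 reads against 581 to 2591 (adjusted p = 0.14). In the cell cycle list CCND2 was the only call of 21, with a list median of -0.09, and MYC was level at 13.58 to 14.58 against 13.43 to 14.40. MT-ND2, a mitochondrial complex I subunit, was at 18.07 to 18.26 against 16.67, 15.15 and 17.26 (1.82 ± 0.48, adjusted p = 0.0495). NU-DUL-1 was its lowest line, and without it the difference was 1.22 and the call was lost (0.39). Of the 6 fits that left out 1 line it passed only without SU-DHL-8.

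Among themselves the 3 L265P lines were more alike than the other 3. Pearson's r across genes, which are not independent, was 0.920 to 0.943 within the L265P lines, 0.868 to 0.903 within the other lines and 0.848 to 0.895 between the groups. Pairs of L265P lines had 463 to 724 genes over 3 log2 units apart, against 938 to 1175 for pairs of the other lines. Pairs with NU-DUL-1, of another library type, had r of 0.848 to 0.888. Without it the only pair of other lines, MD903 and SU-DHL-8, had r = 0.903 and 982 genes apart. Between the groups r was then 0.871 to 0.895. HBL-1 stood over 3 units above both other L265P lines in 205 genes, among them CD38, at 10.64 against 7.10 in OCI-Ly10 and 6.69 in OCI-Ly3. It stood as far below them in 120 genes, CXCL13 and PRDM1 included.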

How the data were processed

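Expression was measured by RNA-seq, 1 library per line, and 34 lines entered the fit (ABC with MYD88 L265P 3, other ABC 3, mantle cell 11, GCB 14, Burkitt 3). The authors deposited log2 values after a variance-stabilising transformation, for 31975 genes in 1 table. The submitters' processing notes name STAR 2.5.3a, R 3.6.1, DESeq2 1.26.0 and GRCh38 without their roles; the counting tool, annotation and use of strand are not given in the sources used here. The transformation was inverted to whole reads (100% of values whole in each library, tolerance 0.05), which gave the reads and depths printed. Symbols were matched by identifier for 31574 genes.

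Genes over 1 log2 unit above the lowest value in at least 3 lines were kept (22167). Group means were compared with limma 3.58.1 (R 4.3.3), with a mean-variance trend over all 34 lines, 29 residual degrees of freedom and Benjamini-Hochberg adjustment over all genes kept. The contrast was L265P minus other ABC lines, and the threshold was 0.05. The fit was tested on simulated data. The members and the 27 gene lists (418 genes) were chosen with earlier results of these data known, so no list is independent evidence of its direction. The text names 25 core genes, called list genes, genes that show how a list's lines are arranged, and the 12 highest and up to 12 lowest differences among genes that passed with and without NU-DUL-1, had the same direction and did not overlap. Alternatives were leaving out each ABC line, the 6 ABC lines alone, the first library class only (without NU-DUL-1 and the 8 GCB lines of its type), the class as a covariate, median-centred and quantile-normalised libraries, no filter, a stricter filter, and log2 counts with voom weights. For voom the counts were scaled by the depth factors recovered from the deposited values, not by library totals, so it kept the scaling of the main fit. Promoters and coordinates came from RefSeq (GRCh38.p14). A few genes that entered the fits and the counts are not reported here by name.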

Additional observations from a re-analysis of the deposited data

How the results depend on the processing

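No paired analysis was possible because the labels carry no replicate numbers and each line is 1 library. The 296 calls ranged from 146 to 289 when 1 ABC line was left out, with 200 without NU-DUL-1 (179 higher and 21 lower). In the 6 ABC lines alone 111 genes passed, of which only 64 were among the 296. Under the stricter filter, with 13353 genes tested, 150 passed, all of them among the 296. What lowered these counts was not tested. The 17 calls on the gene lists (15 higher and 2 lower) ranged from 6 to 15 with 1 line left out, and were 10 in the 6 ABC lines alone and 8 in the first library class only. The 4 calls among the core genes ranged from 1 to 4, and were 1 and 2 in these settings. The remaining settings gave 204 to 428 calls in all. Quantile normalisation gave 217 higher and 71 lower with a median difference of -0.12, and voom gave 252 and 52. The CXCR4 difference stayed below 0 in every setting, from -3.96 to -1.45, and did not pass in any. None of the 37 named genes that passed changed sign in any setting, but calls were lost, in 21 of the 37 in the 6 ABC lines alone (IL10 at an adjusted p of 0.077, STAT3 at 0.065 and MME at 0.067 among them) and in 15 in the first library class only (SOCS3 at 0.12, BATF at 0.15 and LAG3 at 0.0503 among them). The class as a covariate, both scalings, both filters and voom each lost 1 to 5. Differences of 4 named genes that did not pass changed sign. BTK (0.32) was -0.01 without SU-DHL-8 and -0.18 with median-centred libraries, and CD79B (-0.26) was 0.26 without OCI-Ly3 and 0.01 without SU-DHL-8. TNFAIP3 (0.36) was -0.16 without HBL-1 and -0.14 with median-centred libraries, and TLR7 (-2.21) was 0.57 under voom. The medians of some lists changed sign under median scaling, the B-cell transcription factors and plasma cell genes among them. Groups of 3 lines are too small to test for a line far from the others. The depth of 22703365 reads in NU-DUL-1 limits what 0 reads there can show.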

Other observations

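Genes in this paragraph were chosen after their values were seen. Cancer-testis genes of the CT45A family on the X chromosome were among the higher calls: CT45A1 had 2064, 14332 and 1659 reads in HBL-1, OCI-Ly3 and OCI-Ly10 and 0 in MD903, NU-DUL-1 and SU-DHL-8 (5.96 ± 0.81 log2 units, limma adjusted p = 1.9e-05). CT45A3 and CT45A10 were at 480 to 2600 and 1451 to 6073 reads against 0, and reads of these near-identical copies may be shared between them. Transcription factors known from other tissues were called as well. In the same order of lines, HLF had 5599, 1456 and 528 reads against at most 2 (4.78 ± 0.55, adjusted p = 1.6e-06), and GATA4 had 1410, 557 and 406 against at most 1 (3.56 ± 0.55, adjusted p = 0.00017). HLF had no line of other pathology that reached the lowest L265P line. In the 6 ABC lines alone neither HLF (0.070) nor GATA4 (0.061) passed.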
